A study of Drosophila melanogaster with 23 samples.

Results

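The 10 genes described here encode receptors for dopamine (Dop1R1, Dop1R2 and Dop2R), serotonin (5-HT1A, 5-HT1B, 5-HT2A and 5-HT7) and octopamine (Oamb, Octbeta1R and Octbeta2R). They were taken by symbol from the 17521 genes of the count table, and all 10 were found. Each was followed in the whole brain of wild-type Drosophila melanogaster over 4 ages in each sex.

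All 10 proteins are G protein-coupled receptors, which pass an amine signal from outside the neuron to cyclic AMP, calcium or ion channels inside it. Dopamine and octopamine carry teaching signals to the mushroom body, the center of olfactory memory in the fly, and serotonin acts on sleep, feeding, aggression and memory. Octopamine takes the place in insects that noradrenaline has in vertebrates.

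Males and females of the Canton-S strain were kept apart and taken at 5, 20, 30 and 40 days after eclosion, with no mutation or treatment in any group. Every library was made from a pool of 18 brains, so that a value is an average over 18 flies and over all cells of the brain. Each group had 3 libraries, named A, B and C, but for males of 30 days, whose library A the authors had removed because it held female material, so that 2 were left. Libraries are written as sex, age and replicate, so that F5C is replicate C of 5-day-old females and M40A replicate A of 40-day-old males. In RNA from whole brains, fewer cells of a type and less RNA per cell cannot be told apart.

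The 23 libraries held between 6770442 and 28687450 counted reads, with a median of 15628443. The 10 receptor genes were well covered, from 156 reads for 5-HT1B in F40B to 12666 reads for Dop2R in F5C, and all 10 passed the filter on low counts in each sex. Levels are given as CPM (reads per 1000000 counted), scaled by TMM (edgeR's trimmed mean of M values) within each sex. Markers of brain cells were present in every library. The neuronal RNA-binding protein elav had 236 to 593 CPM and repo, a transcription factor of glia, had 111 to 320.4 CPM. Markers of fat body and photoreceptors were also present, at sums given below. In 5 libraries (F5B, F30A, F30B, F40A and M40C) mex1, a gene of the gut, stood above 10 CPM, between 15.9 and 149.3 CPM. F5C had the highest CPM of its group for 9 of the 10 receptor genes, against 39.4% of all genes, and M5B for 10 of 10, against 34.6%. M5C and F40A had the lowest CPM of their groups for 10 of 10 receptor genes, against 33.5% and 39.1% of all genes.

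In the dm6 assembly, 7 of the 10 genes lie on chromosome arm 3R. Dop1R1 spans 14165379 to 14214810, Dop1R2 29630304 to 29659984, 5-HT7 30968236 to 31016875, Oamb 20689018 to 20714577 and Octbeta2R 12550625 to 12595725, all on the minus strand. 5-HT2A (4612870 to 4633304) and Octbeta1R (22497215 to 22520078) lie on the plus strand of the same arm. On 2R, 5-HT1B spans 19022325 to 19032642 on the minus strand and 5-HT1A 19067155 to 19121958 on the plus strand. Dop2R is the only one on the X, at 20004680 to 20062706 on the minus strand. Reads were counted over exons, of which these genes have between 4.03 kb (5-HT1B) and 14.6 kb (Dop1R1). Annotated exons of other genes overlapped those of Octbeta2R alone, with mir-284 the longest at 100 bases, 1.33% of its exon length.

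Per kilobase of exon, Dop2R and Octbeta2R had the highest levels. Averaged over the 8 groups of libraries, the level was 26.3 CPM per kb for Dop2R, 23.6 for Octbeta2R, 15.6 for Octbeta1R, 14.5 for 5-HT7, 13.3 for 5-HT2A, 12.3 for Dop1R1, 11.7 for both Oamb and 5-HT1A, 9.36 for Dop1R2 and 7.30 for 5-HT1B. Only the step from Octbeta2R to Octbeta1R held in all 23 libraries. Dop2R was above Octbeta2R in 9 of 23 libraries, and between Octbeta1R and 5-HT1A each gene was above the next in 12 to 15 of 23, so these neighbours were not separated beyond their spread. 5-HT1A was above Dop1R2 in 19 libraries, and Dop1R2 above 5-HT1B in 15.

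**Figure D1:**
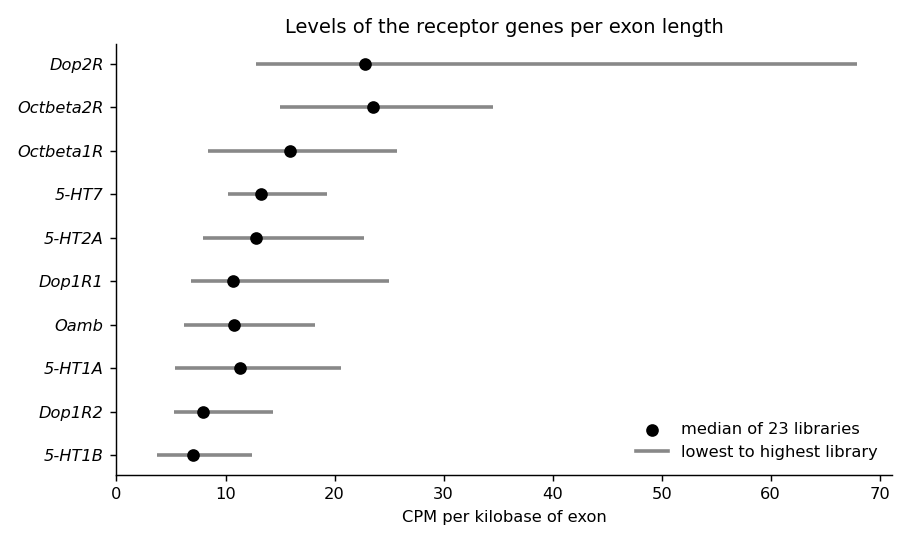
Level of each receptor gene per kilobase of exon (x axis, CPM per kb, TMM-scaled over all libraries). Black points are medians of the 23 libraries and grey lines run from the lowest to the highest library. Dop2R has the widest range, from 12.8 to 68.0 CPM per kb, and 5-HT1B the lowest median, 7.01.

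Female brains had less RNA of most of these receptors at 30 days than at 5 days, and their levels were higher again at 40 days. The 3 genes Dop2R, 5-HT1A and Octbeta1R fell at 30 days. Of these, 5-HT1A and Octbeta1R rose between 30 and 40 days. The serotonin receptor 5-HT2A and the dopamine receptor Dop1R2 were not lower at 30 than at 5 days. In males, none of the 10 genes passed the tests at any age, and the levels of most were lowest at 20 days.

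The first comparison asked whether the genes differ between ages in females. A gene was called changed at a false discovery rate (FDR, Benjamini-Hochberg over all genes tested) of 5% both in the edgeR F test over the 4 ages and in the test of the 2 ages compared. The test over ages alone called 3 of 10 receptor genes, where 14.5% of all 10505 genes tested were called. At 30 against 5 days, 3 of 10 were called, all lower, where 6.67% of all genes were called and 4.82% were called lower. The median log2 fold change of the 10 genes was -0.72, beside -0.0010 for all genes. At an unadjusted p under 0.05, 7 of 10 were lower, against 15.1% of all genes, and 6 of 10 were lower in every 30-day library than in every 5-day library, against 19.1% of all genes. DESeq2, which called 1506 of all 14471 genes it tested there, called 5 of 10 at 30 days, with 5-HT1B and Oamb added. Without F5C, edgeR called 2 of 10 at 30 days (Dop2R and 5-HT1A), 7 of 10 had a log2 fold change below 0, and the median was -0.38. Left out singly, F20C left 1 call (Dop2R), and F30A, F30B, F40B or F40C left 0.

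At 20 against 5 days, 0 of 10 were called in females by edgeR, where 2.97% of all genes were called. Of the 10 genes 9 had a log2 fold change below 0, against 53.8% of all genes, with a median of -0.53. At an unadjusted p under 0.05 there were 4 of 10 (20.7% of all genes), and DESeq2 called 1 of 10, Dop2R (899 of 14471 genes). At 40 against 5 days, 0 of 10 were called by edgeR (7.34% of all genes) and 3 of 10 had an unadjusted p under 0.05 (26.2%). DESeq2 called 1 of 10, Dop1R2 (1482 of 14471 genes), and the edgeR median was 0.05. At 40 against 30 days, 2 of 10 were called, both higher, where 6.61% of all genes were called and 3.72% were called higher. All 10 log2 fold changes were above 0 there, while 53.5% of all genes were below 0, and the median was 0.56. In 7 of 10 every 40-day library was above every 30-day library, against 17.4% of all genes. DESeq2 called 3 of 10, with Dop1R1 added (1474 of 14471 genes). The 2 edgeR calls became 4 without F5C (Dop1R1 and Dop2R added), 1 without F20C or F30C, and 0 without F30A, F30B, F40A, F40B or F40C. These comparisons share libraries, the 5-day group in the first 3 and the 30-day group in those at 30 days, so they are not independent of each other.

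**Figure D2:**
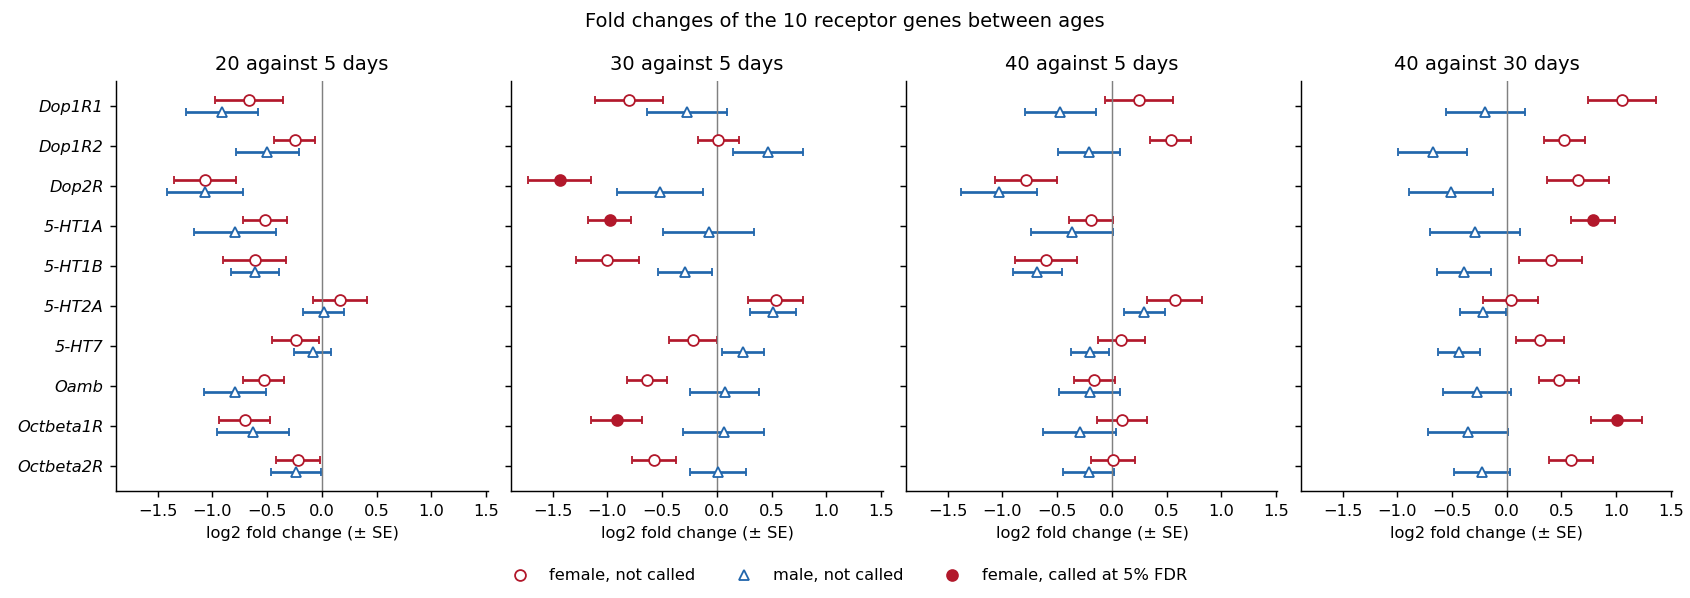
Log2 fold change (x axis) of each receptor gene in the 4 comparisons of ages named above the panels, in females (red circles) and males (blue triangles). Error bars are ± 1 SE of the edgeR fit and filled symbols are genes called at a 5% FDR. At 40 against 30 days all 10 female values lie above 0 and all 10 male values below it.

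Of the dopamine receptors, Dop2R showed the largest fall. Dop2R is the fly's D2-like receptor, which lowers cyclic AMP and also sits on dopamine neurons as an autoreceptor. In females it had 198, 190.1 and 430.4 CPM at 5 days (A, B and C), 104, 136 and 150.0 at 20 days, 85.5, 112 and 105 at 30 days, and 149.5, 164 and 161 at 40 days. Each 5-day library stood above every older female library, and F5C stood far above the other two. The mean was 273 ± 136 CPM at 5 days and 101 ± 13.6 at 30 days (SD, n = 3 each). The log2 fold change at 30 days was -1.44 with an SE of 0.29 (edgeR adjusted p = 0.0176). It was -1.07 with an SE of 0.28 at 20 days (adjusted p = 0.0667) and -0.79 with an SE of 0.28 at 40 days (adjusted p = 0.103), which did not pass, while DESeq2 called Dop2R at 20 days (adjusted p = 0.00797).

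The size of the fall in Dop2R rested in part on 1 library. Without F5C it was -0.92 on the log2 scale at 30 days, still called at an adjusted p of 0.0214 by edgeR. The call was lost when F30A, F30B, F40B or F40C was left out, when only the libraries of 5 and 30 days were fitted, and without the libraries high in mex1, which left 1 library at 30 days and a log2 fold change of -1.57. Over all alternatives its adjusted p ran from 6.94e-05 to 0.538.

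In males Dop2R had 249.5, 397 and 154 CPM at 5 days, 106, 150.2 and 125 at 20 days, 154 and 218 at 30 days (B and C), and 83.8, 161 and 147 at 40 days. Only at 20 days did all libraries lie below the 5-day libraries, by a narrow margin to M5C. The log2 fold change was -1.07 with an SE of 0.35 at 20 days and -1.03 with an SE of 0.35 at 40 days, with edgeR adjusted p-values of 0.274 and 0.139.

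Dop1R1 is the D1-like receptor that the mushroom body needs to form olfactory memories. In females it had 117, 149.8 and 299 CPM at 5 days, 99.3, 142 and 114.7 at 20 days, 95.1, 132 and 97.7 at 30 days, and 186, 241 and 244 at 40 days. The 40-day libraries were above every 30-day library, while the 30-day libraries overlapped those of 5 days through F5A. The log2 fold change was -0.80 with an SE of 0.31 at 30 against 5 days (edgeR adjusted p = 0.131) and 1.05 with an SE of 0.31 at 40 against 30 days (adjusted p = 0.0609), and neither passed. DESeq2 called the second (adjusted p = 0.00844). At 40 against 5 days it was 0.25 with an SE of 0.31 (adjusted p = 0.657), but 0.76 without F5C (adjusted p = 0.0367), which then passed. In males Dop1R1 had 239, 368 and 165 CPM at 5 days, 104, 172 and 135 at 20 days, 221 and 206 at 30 days, and 120.0, 234 and 204 at 40 days, with overlap between all ages except 20 and 30 days.

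Dop1R2, also called Damb, is a second D1-like receptor that is linked to the forgetting of olfactory memories. Its female values were 34.2, 37.5 and 50.5 CPM at 5 days, 28.5 to 40.5 at 20 days, 37.4 to 48.5 at 30 days, and 51.3, 63.3 and 62.9 at 40 days. The 40-day libraries were above all younger ones, unlike those of the other dopamine receptors, at a log2 fold change of 0.54 with an SE of 0.19 against 5 days (edgeR adjusted p = 0.095), which did not pass, while DESeq2 called it (adjusted p = 0.0481). Without F5C the edgeR value was 0.73 (adjusted p = 0.0305) and passed. In males it had 73.0 and 74.8 CPM at 30 days, above every library of the other ages, which ran from 27.9 to 66.3 CPM, but no contrast passed.

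**Figure D3:**
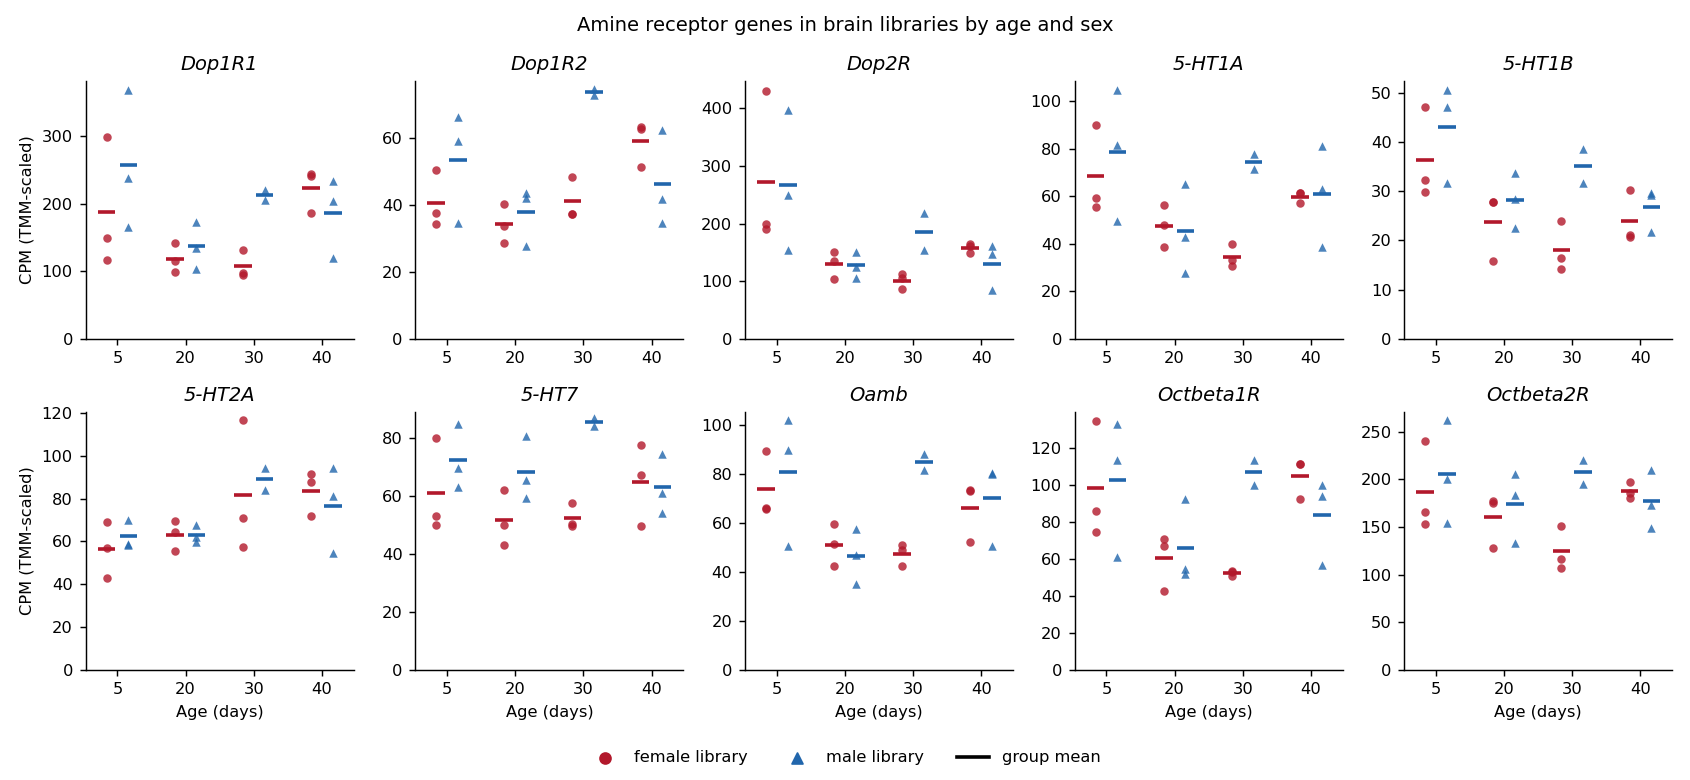
CPM of the 10 receptor genes in every library (y axis, TMM-scaled within each sex) by age in days (x axis), with females as red circles, males as blue triangles and group means as lines. For Octbeta1R the 3 female libraries of 30 days sit between 50.9 and 53.3 CPM, under all those of 5 days and 40 days.

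Of the serotonin receptors, 5-HT1A was called. It couples to inhibitory G proteins and is known in flies for its part in sleep. In females it had 59.2, 55.5 and 90.0 CPM at 5 days, 38.5, 56.2 and 47.9 at 20 days, 30.6, 33.1 and 40.0 at 30 days, and 57.1, 61.1 and 61.2 at 40 days. All 30-day libraries lay below all libraries of 5 and 40 days. The mean fell from 68.2 ± 18.9 CPM at 5 days to 34.6 ± 4.86 at 30 days (SD, n = 3 each), a log2 fold change of -0.98 with an SE of 0.20 (edgeR adjusted p = 0.019). It then rose to 59.8 ± 2.35 at 40 days (n = 3), a log2 fold change of 0.79 with an SE of 0.20 against 30 days (adjusted p = 0.0385).

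The fall of 5-HT1A was -0.70 without F5C (edgeR adjusted p = 0.0391) and kept its call. It was lost without F20C, F30A, F30B, F40A, F40B or F40C, with only 2 ages in the fit, with both sexes in 1 fit, and without the libraries high in mex1, where the log2 fold change was -0.89. Its rise was lost without the same 6 libraries, with both sexes in 1 fit, without the mex1 libraries, and once a trend with transcript length had been removed (0.53, adjusted p = 0.0738). Over the alternatives the adjusted p ran from 0.000483 to 0.574 for the fall and from 0.00452 to 0.529 for the rise.

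In males 5-HT1A had 81.4, 105 and 49.4 CPM at 5 days, 27.6, 65.1 and 42.8 at 20 days, 77.7 and 71.2 at 30 days, and 38.6, 63.1 and 81.1 at 40 days. Libraries of 1 age differed by up to 65.1 against 27.6 CPM, and the groups overlapped, apart from those of 20 and 30 days.

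5-HT1B, the other receptor of the 5-HT1 class, had the lowest level of the 10 per kilobase. In females it had 29.8, 32.3 and 47.2 CPM at 5 days, 15.8, 27.8 and 27.9 at 20 days, 16.4, 14.1 and 24.0 at 30 days, and 20.6, 21.1 and 30.2 at 40 days. The libraries of 20 and 30 days were all below those of 5 days. The log2 fold change at 30 days was -1.003 with an SE of 0.29 (edgeR adjusted p = 0.0569), as large as that of 5-HT1A but just outside the threshold. DESeq2 called 5-HT1B lower at 30 days (adjusted p = 0.0133). In males it had 47.1, 50.7 and 31.6 CPM at 5 days and 21.7, 29.4 and 29.6 at 40 days, which did not overlap, at a log2 fold change of -0.68 with an SE of 0.22 (adjusted p = 0.126).

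5-HT2A, whose class acts through calcium release, was not lower at 30 than at 5 days in females (log2 fold change 0.54, SE 0.25). Nor was Dop1R2 (0.01, SE 0.19). The lowest mean of 5-HT2A was at 5 days in both sexes. In females it had 68.9, 43.1 and 56.7 CPM at 5 days, 55.3, 69.3 and 64.5 at 20 days, 71.0, 117 and 57.5 at 30 days, and 71.9, 87.9 and 91.5 at 40 days. The 40-day libraries were all above those of 5 days, with a log2 fold change of 0.58 and an SE of 0.25 (edgeR adjusted p = 0.175). The value of F30B stood apart from its group. Leaving out the libraries high in mex1, F30B among them, left 1 library at 30 days. The log2 fold change of 5-HT2A was then -0.12 at 30 against 5 days and 0.63 at 40 against 30 days. In males it had 58.7, 70.2 and 58.2 CPM at 5 days and 94.1 and 84.1 at 30 days, with no overlap, at a log2 fold change of 0.51 with an SE of 0.21 (adjusted p = 0.727).

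5-HT7, which raises cyclic AMP, differed little between ages in females. Its female means ran from 51.7 ± 9.46 CPM at 20 days to 64.9 ± 14.1 at 40 days (SD, n = 3 each), its F test over ages had an edgeR adjusted p of 0.519, and libraries of all ages overlapped. In males it had 86.8 and 84.2 CPM at 30 days and 54.1, 74.4 and 61.1 at 40 days, a log2 fold change of -0.44 with an SE of 0.19 (adjusted p = 0.579).

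Of the octopamine receptors, Octbeta1R was called. It is one of the fly's beta-adrenergic-like octopamine receptors. In females it had 74.9, 86.0 and 135 CPM at 5 days, 42.9, 71.1 and 67.3 at 20 days, 50.9, 52.7 and 53.3 at 30 days, and 92.4, 112 and 111 at 40 days. The libraries of 20 and 30 days lay below all those of 5 and 40 days. The mean fell from 98.6 ± 32.0 CPM at 5 days to 52.3 ± 1.25 at 30 days (SD, n = 3 each), a log2 fold change of -0.91 with an SE of 0.23 (edgeR adjusted p = 0.0378). At 40 days it was 105 ± 10.99 (n = 3), a rise of 1.01 with an SE of 0.23 on the log2 scale (adjusted p = 0.0316), and so 0.09 with an SE of 0.23 from the 5-day level (adjusted p = 0.842).

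The fall of Octbeta1R was the least firm of the 3. Without F5C it was -0.59 (edgeR adjusted p = 0.107), and the call was also lost without F5B, F20C, F30A, F30B, F30C, F40B or F40C, with only 2 ages in the fit, with both sexes in 1 fit, and without the mex1 libraries (-0.97). Its rise was lost without any 1 of the 6 libraries of 30 and 40 days, with both sexes in 1 fit, without the mex1 libraries and with the length trend removed (0.71, adjusted p = 0.054). The adjusted p ran from 0.0051 to 0.598 for the fall and from 0.00111 to 0.442 for the rise. In males Octbeta1R had 113, 133 and 61.0 CPM at 5 days, 52.1, 92.3 and 54.4 at 20 days, 114 and 100.3 at 30 days, and 56.8, 94.1 and 100.03 at 40 days, and M5C lay among the 20-day values.

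Octbeta2R, which raises cyclic AMP, and Oamb, an alpha-adrenergic-like receptor expressed in the mushroom body, also had their lowest female means at 30 days, without passing the edgeR tests. Octbeta2R had 153, 166 and 239.9 CPM at 5 days, 117, 107 and 151 at 30 days, and 180.2, 185 and 198 at 40 days. Its 30-day libraries were below all those of 5 and 40 days, at log2 fold changes of -0.58 with an SE of 0.20 against 5 days (edgeR adjusted p = 0.0964) and 0.59 with an SE of 0.20 for 40 against 30 days (adjusted p = 0.0892). Oamb had 66.0, 65.7 and 89.3 CPM at 5 days, 42.3, 50.8 and 48.9 at 30 days, and 52.0, 72.9 and 73.2 at 40 days. For Oamb, too, the 30-day libraries lay below both other groups, with -0.64 and an SE of 0.18 (adjusted p = 0.0577) and then 0.48 with an SE of 0.18 (adjusted p = 0.127). DESeq2 called the fall of Oamb (adjusted p = 0.0237) and no change of Octbeta2R. In males the lowest mean of both was at 20 days, with 46.4 ± 11.1 CPM for Oamb and 174 ± 37.5 for Octbeta2R (SD, n = 3 each), and the libraries of 20 and 5 days overlapped.

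By group means, most receptor genes were lowest at 30 days in females and at 20 days in males. The tests between the sexes, given below, called none of the 10. In females 7 of 10 genes had their lowest mean at 30 days, 2 at 20 days (Dop1R2 and 5-HT7) and 1 at 5 days (5-HT2A). In males 7 of 10 were lowest at 20 days, 2 at 40 days (5-HT1B and 5-HT7) and 1, again 5-HT2A, at 5 days. These are orders of means of 2 or 3 libraries. Most of the genes also rose and fell together, so the counts are not of independent genes. In males the libraries of 20 and 5 days overlapped for 9 of 10 genes. Most other genes overlapped too, with 8.85% of all genes fully lower at 20 days and 8.78% fully higher. Both 30-day libraries lay above every 20-day library for 8 of 10 (not for 5-HT1B and Octbeta2R), against 20.1% of all genes, a difference that was not tested by edgeR.

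edgeR called 0 of 10 receptor genes in males over the 4 ages, where 0.287% of all 10799 genes were called, and 2 of 10 had an unadjusted p under 0.05, Dop2R and 5-HT1B (17.1% of all genes). For 20, 30 and 40 against 5 days and 40 against 30 days, DESeq2 called 0 of 10 in each. Of all 14614 genes it called 201, 66, 801 and 82 there. edgeR also called 0 of 10 in each (0.037%, 0.0463%, 0.287% and 0% of all genes). At 20 against 5 days, 4 of 10 were lower at an unadjusted p under 0.05 (Dop1R1, Dop2R, 5-HT1B and Oamb), against 7.28% of all genes, and 9 of 10 had a log2 fold change below 0, against 49.1%, with a median log2 fold change of -0.62 beside 0.0094 for all genes. Against 5 days, 1 of 10 had such a p at 30 days (5-HT2A, 6.26% of all genes) and 2 of 10 at 40 days (Dop2R and 5-HT1B, 20.2% of all genes). At 40 against 30 days 1 of 10 had one (5-HT7, 8.46% of all genes). All 10 log2 fold changes were below 0 at 40 against 30 days, where 49.2% of all genes were, and 5 of 10 did not overlap, all lower, against 16.5% of all genes. With 2 libraries at 30 days these male values rest on fewer brains.

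Whether the age effect itself differed between the sexes was tested in 1 fit of all 23 libraries. DESeq2 called 0 of 10 receptor genes at 20, 30 and 40 days, and 21, 8 and 18 of all 15221 genes. No gene passed this test by edgeR at any of these ages, of the 10 receptors or of all 11332 genes (0% called). At an unadjusted p under 0.05 there was 0 of 10 at 20 days (4.02% of all genes), 1 of 10 at 30 days (8.75%) and 0 of 10 at 40 days (6.28%). The 1 gene was Octbeta1R, whose change at 30 days was lower in females by -0.95 on the log2 scale, with an SE of 0.45 (adjusted p = 0.56), an interval of 2 SE either side from -1.84 to -0.06. For Dop2R the difference was -0.89, from -1.88 to 0.10, and for 5-HT1A -0.88, from -1.80 to 0.03. At 30 days 9 of 10 of these differences were below 0, against 47.6% of all genes, with a median of -0.62. At 40 days all 10 were above 0, with a median of 0.26, while 50.3% of all genes were below 0. The fall seen in females at 30 days was not shown to differ from the male change. Among the 14 neuron markers described below, 14 of these differences were below 0 at 30 days (median -0.80) and 1 at 40 days (median 0.34).

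Averaged over the 4 ages, 9 of 10 receptor genes had lower levels in females than in males, against 51.8% of all genes, and edgeR called 0 of 10, where 5.85% of all genes were called. The median log2 difference was -0.18. It was -0.26 with an SE of 0.10 for 5-HT7 (58.8 CPM in females and 70.9 in males, adjusted p = 0.141) and -0.34 with an SE of 0.14 for 5-HT1B (26.1 and 32.7 CPM, adjusted p = 0.148), the 2 genes with an unadjusted p under 0.05, where 22.8% of all genes had one. DESeq2 also called 0 of 10, and 1159 of all 15221 genes. Without F5C, 5-HT7 was called. Levels were also lower in females for 14 of 14 neuron markers (median log2 difference -0.24) and 7 of 7 glia markers (-0.28), described below. The same held for 6 of 7 of the remaining amine receptors (-0.23). Of muscle, gut, fat body and hemocyte, and photoreceptor markers, 4 of 13, 0 of 8, 1 of 8 and 1 of 10 were lower in females.

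Most receptor genes other than 5-HT2A went up and down together from library to library, Dop1R2 less so in females. Over the 12 female libraries, the correlation of log2(CPM + 1) between pairs of the other 9 genes had a median r of 0.79 (0.05 to 0.94 over 36 pairs), and over the 11 male libraries of 0.81 (0.44 to 0.96). Between 5-HT2A and the other 9 the median r was -0.01 in females and 0.17 in males. In females Dop1R2 had an r of 0.52 with 5-HT2A. Among the other 9 its r ran from 0.05 with 5-HT1B to 0.75 with Dop1R1. The points share their library and its depth, so these values describe the libraries, age differences included. The genes outside the list whose levels were most like the mean of the 10 were CG32206 (r = 0.989), CG15894, Rab3-GEF, CG5937 and unc80 in females, of 8243 genes with a mean of at least 5 CPM, and CG5937 (r = 0.994), toc, sca, CG42261 and CG5549 in males. CG5937 is in both lists. unc80 encodes a part of the sodium leak channel complex of neurons.

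Markers of neurons in general moved in the same direction as the receptor genes. Of 14 neuron markers, which include elav, nSyb, brp and Syt1, 7 fell at 30 against 5 days in females (4.82% of all genes). At 40 against 30 days 12 rose (3.72% of all genes). The median log2 fold changes of the markers were -0.79 and 1.06. In males 0 of 14 were called in any comparison, where at most 0.287% of all genes were called. At 20 against 5 days in males, 14 of 14 had a log2 fold change below 0 (49.1% of all genes), with a median of -0.42. The summed level of the 14 was 5946 to 9446 CPM in 5-day-old females, 4467 to 6217 at 20 days, 3449 to 4639 at 30 days and 7083 to 8498 at 40 days. The sum of the 10 receptor genes followed, with 851 to 1518 CPM at 5 days, 604 to 821 at 20 days, 596 to 716 at 30 days and 911 to 1111 at 40 days. Taken as a percentage of the neuron markers, the receptor sum was 14.2 to 16.1% at 5 days, 13.2 to 14.7% at 20 days, 14.5 to 18.4% at 30 days and 12.9 to 13.1% at 40 days in females, so it was not lower at 30 than at 5 days on this scale. In males it was 13.1 to 15.9% at 5 days, 12.9 to 14.3% at 20 days, 13.9 to 15.5% at 30 days and 10.1 to 14.9% at 40 days, with the lowest value in M40C.

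**Figure D4:**
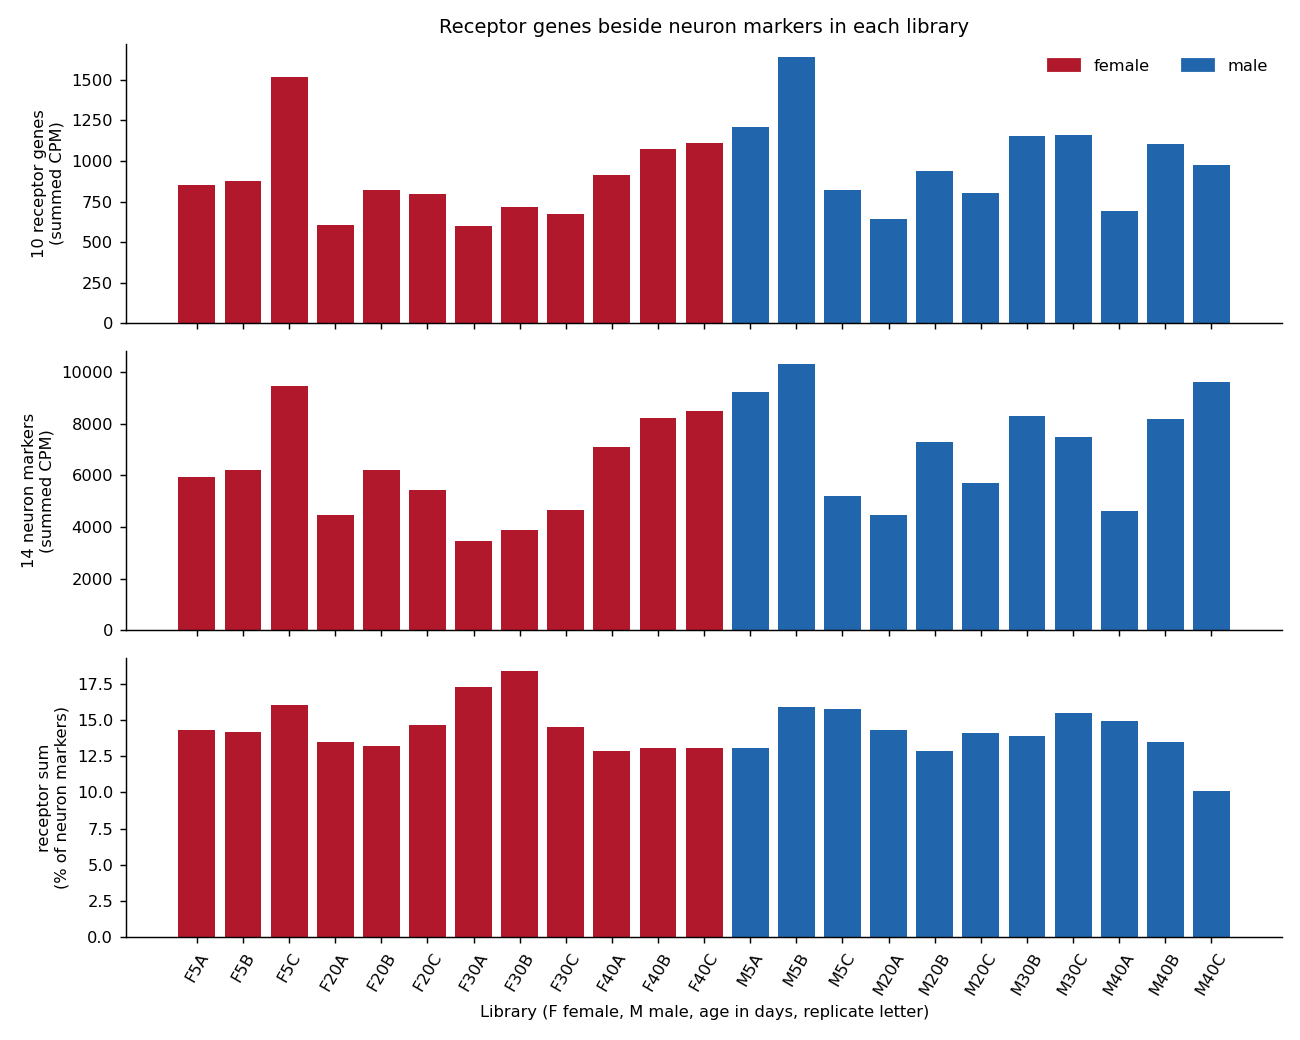
Summed CPM of the 10 receptor genes (top), summed CPM of 14 neuron markers (middle) and the first as a percentage of the second (bottom) in each of the 23 libraries on the x axis, females in red and males in blue. Both sums are lowest among females in F30A, at 596 and 3449 CPM, while the percentage there is 17.3%.

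Other tissues and RNA length also differed between the libraries. Of 7 glia markers, 1 fell at 30 days (4.82% of all genes) and 2 at 40 days (4.87%) against 5 days in females. Their sum was 5206 to 8803 CPM at 5 days, 4221 to 4427 at 30 days and 3290 to 3940 at 40 days. Glia markers were thus not higher again at 40 days. The sum of 8 gut markers ranged from 0.774 CPM in a 5-day-old male library to 20712 in a 30-day-old female library. That of 8 fat body and hemocyte markers ran from 289 CPM in M40C to 114206 in F30C. For 10 photoreceptor markers the sum ran from 2128 CPM in F5C to 33313 in M20A. Genes with at least 4000 bases of exon, as all 10 receptors have, shifted together in a library: their median deviation from the mean of their sex was 0.22 (log2) in F5C, -0.20 in F30A, 0.26 in F40B and -0.27 in M20A, where the receptor genes had 0.72, -0.50, 0.30 and -0.64. The shifts of both had the same sign in 19 of 23 libraries and opposite signs in F5A, F5B, M20B and M40C (0.11 and -0.11 in M40C). With a trend by length removed, the female medians of the receptor genes were -0.48 at 30 against 5 days, with 3 of 10 called, and 0.24 at 40 against 30 days, with 0 of 10 called. Leaving out the mex1 libraries left F30C alone at 30 days, against F5A and F5C at 5 days. All 10 genes were then lower at 30 than at 5 days, with a median log2 fold change of -0.67, beside -0.02 for all genes. F5C had the highest CPM of its group for 9 of the 10, so this comparison rests on few libraries. The part of cell makeup and of tissue carried over at dissection in these differences was not tested.

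The remaining amine receptors of the genome had a like course in females. These were DopEcR, CG18208 (Octalpha2R), Octbeta3R, 5-HT2B and the tyramine receptors Oct-TyrR, TyrR and TyrRII. Of the 7, 6 were lower at 30 than at 5 days (50.1% of all genes), with a median log2 fold change of -0.60. At 40 against 30 days 6 were higher, with a median of 0.73, while 53.5% of all genes were below 0. None was called in a comparison of 2 ages, where 2.97% to 7.34% of all genes were called. In the F test over ages in females 1 of 7 was called, near the share of all genes (14.5%). That gene was 5-HT2B (edgeR adjusted p = 0.0451), with means of 33.3, 21.1, 22 and 39.1 CPM at 5, 20, 30 and 40 days. In males 0 of 7 were called (at most 0.287% of all genes). TyrR, Octbeta3R and 5-HT2B had the smallest p over ages in the edgeR F test, with adjusted p-values of 0.224, 0.262 and 0.385.

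Of 15 genes that make, pack or take up the amines, 2 fell at 30 against 5 days in females (4.82% of all genes). SerT, the serotonin transporter, had 24.5 ± 9.82 CPM at 5 days and 12.3 ± 0.957 at 30 days (SD, n = 3 each), a log2 fold change of -0.997 with an SE of 0.25 (edgeR adjusted p = 0.0372). It rose to 24.0 ± 4.49 at 40 days (n = 3), by 0.96 with an SE of 0.25 (adjusted p = 0.0423). SerT was the only 1 of the 15 called at 40 against 30 days, where 3.72% of all genes were called higher. Tdc2, the neuronal tyrosine decarboxylase that makes tyramine on the way to octopamine, had 17.2 ± 1.86 CPM at 5 days and 8.68 ± 0.731 at 30 days (n = 3 each), at -0.99 with an SE of 0.26 (adjusted p = 0.0437). Unlike SerT it was not called higher at 40 days, where it had 9.79 ± 3.31 CPM. With 1 library left out, SerT kept the call of its fall in 2 of 12 fits (-0.61 without F5C), that of its rise in 2 of 12, and Tdc2 in 3 of 12. The dopamine transporter DAT was not called, with 27.4 CPM at 5 days and 14.1 at 30 days. In males 0 of 15 were called (at most 0.287% of all genes). Dat (a dopamine N-acetyltransferase), SerT and Tdc2 had the smallest p over ages (edgeR adjusted p = 0.105, 0.139 and 0.205).

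Among 22 genes of the signaling steps below the receptors, 5 fell at 30 against 5 days in females (4.82% of all genes). From 30 to 40 days 7 rose (3.72% of all genes). The median log2 fold changes were -0.33 and 0.49. Those that fell were the G protein subunits Galphas (-0.54, SE 0.12) and Galphao (-0.87, SE 0.17), the adenylyl cyclase Ac3 (-0.86, SE 0.21) and the regulatory subunits of protein kinase A, Pka-R1 (-0.56, SE 0.11) and Pka-R2 (-0.60, SE 0.13). Those that rose from 30 to 40 days were Galphao (0.63, SE 0.17), Ac3 (1.01, SE 0.21), Pka-R2 (0.61, SE 0.13), Galphaq (0.94, SE 0.15), the memory gene and adenylyl cyclase rut (0.68, SE 0.17), the phospholipase C Plc21C (0.70, SE 0.17) and the arrestin krz (0.56, SE 0.12). Galphaq (0.76, SE 0.15) and krz (0.51, SE 0.12) also rose at 40 against 5 days, where 2.47% of all genes were called higher. Galphai, the inhibitory subunit, was the only 1 of the 22 called at 20 against 5 days (0.45, SE 0.10), where 1.14% of all genes were called higher. The rise of Galphaq against 5 days was called in 12 of 12 fits with 1 library left out, while the other calls of this list held in 2 to 8 of 12. In males 0 of 22 were called (at most 0.287% of all genes), with Itp-r83A, Galphai and Gprk1 at the smallest p over ages (edgeR adjusted p = 0.205, 0.286 and 0.301).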

How the data were processed

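RNA from pools of 18 brains was sequenced as paired ends. Per the study's methods, Trimmomatic 0.35 trimmed the reads, STAR mapped them to dm6, and HTSeq counted those falling on 1 gene in union mode. The deposited values are raw counts per gene, with no normalization. Whether counting used strand is not given in the sources used here. Positions and exon lengths came from the Ensembl 115 annotation.

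The counts went into edgeR 4.0.16 (R 4.3.3) with filterByExpr, TMM and robust quasi-likelihood fits, each sex alone, over 10505 genes in females and 10799 in males. Calls required a 5% FDR in the F test over ages and in the contrast, two-sided. Interactions and the difference between the sexes came from 1 fit of 23 libraries and 11332 genes. Replicate pairs differed by far more than counting noise (a chi-square per gene of 30.8 to 492). Alternatives included DESeq2 1.42.0, other scalings and filters, the replicate letter as a block, other sets of libraries, removal of a length trend, and each library left out. The tests were also tested on simulated data, with genes drawn at random and changed at every age other than 5 days. The rates therefore do not describe well-counted genes that are low at 30 days and higher again at 40 days. At 30 against 5 days, the female fit (10299 genes) called 19 of 50 genes lowered to 0.25-fold and 3 of 50 lowered to 0.5-fold, and 32 of 50 raised 4-fold and 1 of 50 raised 2-fold, with 1 unchanged gene called. The male fit (10562 genes) called 21, 2, 38 and 4 of 50, and 0 unchanged genes.

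The receptor genes and the other lists were chosen with earlier results of these data known. The text names every receptor gene, the called members of the other lists (or else the 3 with the smallest p over ages) and the 5 genes most alike in each sex. Further genes named as examples were chosen after their values were seen. The p-values measure the spread between pools of brains.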

Additional observations from a re-analysis of the deposited data

How the results depend on the processing

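In females, the 3 genes called over the 4 ages became 7 with DESeq2, 5 with the replicate letter as a block, 1 with both sexes in 1 fit and 0 without the libraries high in mex1, and ran from 0 to 5 with 1 library left out (5 without F5C, 0 without F30A, F30B, F40B or F40C). At 20 against 5 days the 0 calls became 1 with DESeq2, 2 with the block and 1 with the length trend removed. At 30 against 5 days the 3 calls became 5 with DESeq2, 5 with the block, 1 with both sexes in 1 fit, 0 with only the 2 ages fitted and 0 without the mex1 libraries, and ran from 0 to 3 with 1 library left out. At 40 against 5 days the 0 calls became 1 with DESeq2 and 1 with the length trend removed, and ran from 0 to 2. At 40 against 30 days the 2 calls became 3 with DESeq2, 3 with the block, 0 with the length trend removed, 0 with both sexes in 1 fit, 5 with only the 2 ages fitted and 0 without the mex1 libraries, and ran from 0 to 4. The calls between the sexes ran from 0 to 1. The cause was not tested. Over all genes in females, DESeq2 called 3253 of 14470 over the 4 ages, and the fit with the block 1650 of 10505. The fit on 5 and 30 days alone called 0 of 10347 and that on 30 and 40 days alone 1217 of 9981. Without the mex1 libraries 2 of 11203 were called at 30 against 5 days.

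Whether the replicate letters pair the libraries was judged from deviations from the group means. In females 10 of 18 same-letter correlations were over 0.1 (median 0.12), against 14 of 36 between letters (median -0.07), and in males 2 of 15 (median -0.06), against 12 of 30 (median 0.03). The letters were not taken as a pairing, under a rule that every same-letter pair pass 0.1. That rule cannot decide whether the letters are linked, since a weak link would also fail it. A library correlated best with its own letter in 6 of 12 female and 1 of 11 male libraries, and the receptor sum was lowest in replicate A at all 4 female ages (851, 604, 596 and 911 CPM). With the block, Oamb was called in females at 20 against 5 (adjusted p = 0.0486), 30 against 5 (0.0161) and 40 against 30 days (0.0467), and 5-HT1B at 30 against 5 days (0.0135, edgeR). The counts in males and of the interactions stayed at 0 under every alternative run. No direction was reversed among 29 fold changes of receptor genes with an unadjusted p under 0.05, in 630 recomputed values. These 29 were picked for a small p and the refits reuse most libraries, so reversals were unlikely from the start. Fold changes outside the 29 did reverse in females. For 5-HT2A, that at 30 against 5 days went from 0.54 to -0.12 without the mex1 libraries, which left 1 library at 30 days. That at 40 against 30 days went from 0.04 to -0.27 with the length trend removed. With 2 or 3 pools a group, the SEs of the receptor genes reached 0.42 (log2) in males.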
